A study of Mus musculus with 9 samples.

Results

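The genes whose symbol is Gpr followed by a number were examined in whole NB9464 tumors. These are numbered G protein coupled receptors, many of them orphans, meaning receptors whose natural ligand is unknown or disputed. Members were taken as the rows of the count table whose symbol is Gpr, a number and at most 1 further letter, with a count above 0 in any of the 9 libraries. Of 54429 symbols in the table, 73 had such a name and 66 of these were counted at least once. The choice of members used only names and detection. Gpr50 and Gpr55 were singled out beforehand because they were low in treated tumors of these same samples, so their values are given as a description of where they lay in the class and are not independent evidence.

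NB9464 is a mouse neuroblastoma line with MYCN amplification. All 3 groups were wild-type C57BL/6 mice with subcutaneous implants, and treatment began at a tumor volume of 250 mm3. Dosing took place 4 times between day 28 and day 37, without a statement of which agent this schedule covers. The mice were a few weeks old by the study's methods. Vehicle tumors served as controls. The second group received R788 (fostamatinib), a prodrug inhibitor of the kinase Syk, at 50 mg/kg together with an antibody to PDL1 (clone 10F.9G2), and is called R788 + anti-PDL1. The third group received 10 Gy of radiation in addition and is called Rad + R788 + anti-PDL1. There were 3 tumors per group, and radiation, R788 and antibody alone were not analysed here. NB9464 is 1 line grown away from the adrenal or sympathetic site of the human disease.

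A G protein coupled receptor spans the membrane 7 times and, once active, exchanges the nucleotide on a G protein alpha subunit. Different alpha subunits raise or lower cyclic AMP, release calcium or act on the cytoskeleton. RGS proteins shorten the signal, while GRK kinases and arrestins uncouple the receptor. Orphan receptors are expressed at low levels in most tissues, with enrichment in brain and in cells of the immune system. Some act without a ligand or by pairing with another receptor.

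The pattern of names did not define a pure class of orphan receptors. It took in receptors with well known agonists, such as the proton sensors Gpr4, Gpr65 and Gpr132, and Gpr183, which binds oxysterols. It also took in 10 detected proteins that are not settled as G protein coupled receptors, among them the Golgi protein encoded by Gpr89 and the lysosomal protein encoded by Gpr155. The members are therefore called numbered Gpr genes below. Of the 66 detected, 65 were protein coding and 6 lay on chromosome X.

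The 250 bases before the annotated start of Gpr50 and of Gpr55 are shown because these genes had the lowest log2 fold changes of the class in both comparisons with vehicle. They come from RefSeq on GRCm38.p6 and are written 5′ to 3′ on the strand of the gene. Capitals mark a CCAAT box, which here lies on the opposite strand and so reads ATTGG.
Gpr50, chrX:71663417-71663666, plus strand: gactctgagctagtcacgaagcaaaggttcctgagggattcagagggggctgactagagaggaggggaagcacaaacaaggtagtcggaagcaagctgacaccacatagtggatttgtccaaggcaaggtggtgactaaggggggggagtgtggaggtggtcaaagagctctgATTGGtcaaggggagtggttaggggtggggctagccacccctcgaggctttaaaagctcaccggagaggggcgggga
Gpr55, chr1:85961056-85961305, minus strand: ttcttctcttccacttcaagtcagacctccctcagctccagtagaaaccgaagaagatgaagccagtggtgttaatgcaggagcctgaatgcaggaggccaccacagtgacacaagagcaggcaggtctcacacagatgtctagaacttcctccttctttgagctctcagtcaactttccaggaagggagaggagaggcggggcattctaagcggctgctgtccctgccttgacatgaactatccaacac
The Gpr50 window had 56.8% GC and 5 CpG dinucleotides, and the Gpr55 window had 52.0% GC and 3 CpG dinucleotides. The median was 52.4% over all 32536 promoter windows and 57.0% over the 62 windows that matched 47 members. Both strands were searched for 6 short motifs. The CCAAT box of Gpr50 began at position -77, counted back from the start, and 33.8% of all windows held such a box, as did 24 of the 62 member windows. Neither window held an E-box (CACGTG, in 6.04% of all windows), a CRE (TGACGTCA, 1.56%), a TATA box (TATAAA, 12.3%), an AP-1 motif (TGANTCA, 6.73%) or a GATA motif (AGATAA, 9.97%). The windows of Gpr50 and Gpr55 thus shared none of the 6 searched motifs. These matches describe letters in the sequence, and binding was not measured.

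Total counts were between 18276683 and 23397886 per library. Between 42 and 58 of the 66 numbered Gpr genes were detected per library, and 33 were detected in all 9. The lowest number belonged to Rad + R788 + anti-PDL1 replicate 1. That library also stood apart in its normalization factor (0.743, against 0.975 to 1.12 in the others), in its share of mitochondrial counts (1.97%, against 3.48% to 5.71%) and in its correlation with the other libraries across genes (0.865 to 0.907). The values of Gpr50, Gpr55 and Gpr22 are given with and without it, and the numbers of called members without it were 2, 0 and 0 of 41 tested in the 3 comparisons. In that fit 856, 57 and 21 of 16618 genes were called (5.15%, 0.343% and 0.126%), against 108, 7 and 1 of 15931 with all libraries, so 2 of 41 was near the share of all genes in the first comparison. Among neuroblast markers, Th was at 0 in all 9 libraries and Dbh was at 1 count in a single library. By contrast, Hand2 and the mouse gene Mycn were abundant (Hand2 325 to 867 CPM, Mycn 93.3 to 250 CPM). The neuroblast markers Isl1 and Gata3 varied with the groups and are given beside Gpr50 and Gpr55. CPM are counts scaled to a common library size with TMM factors. All 8 macrophage markers were above 3 counts in every library. In whole tumors, fewer cells of a type and less RNA per cell cannot be told apart.

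Most of the class was scarce. Of the 66 detected genes, 24 had at least 10 counts in every library and 9 were never above 3 counts. The filter on low counts left 35 for testing, of which 11 did not reach 10 counts in every library. A gene of that kind can enter the test only through the group in which it is high. The other 31 were not tested. Gpr101, Gpr119, Gpr12, Gpr139, Gpr149, Gpr165 and Gpr6 had no count in any library, where a count of 0 allows up to 3 counts, or 0.115 to 0.221 CPM by library. Differences in such genes were not detectable at this depth. Gpr6 and Gpr12 belong to the constitutively active receptors that raise cyclic AMP, of which Gpr3 was detected but too low to test and Gpr26 was tested.

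By group mean, Gpr50 was the highest member of the class in vehicle tumors. Per kb of exon, its mean level was 24.2 ± 18.0 CPM (SD, n = 3). It was followed by Gpr180 (15.6 ± 2.21 CPM per kb), Gpr108 (12.8 ± 1.18 CPM per kb) and Gpr89 (7.37 ± 0.84 CPM per kb). Gpr55 ranked 5 at 6.46 ± 1.76 CPM per kb. Next came Gpr153 at 6.37 ± 2.28, Gpr22 at 4.78 ± 1.05, Gpr161 at 4.29 ± 0.28, Gpr107 at 4.03 ± 0.28 and Gpr162 at 3.43 ± 0.92 CPM per kb. Gpr50, with its wide spread, overlapped Gpr180, Gpr108, Gpr89, Gpr55 and Gpr153 within 1 SD. In vehicle replicate 1, Gpr50 was at 3.99 CPM per kb, below Gpr55 at 4.44 CPM per kb. Gpr180 and Gpr108 overlapped, as did each neighbouring pair from Gpr89 downward, so the exact order among these genes was not resolved. Gpr108 and Gpr89 did not overlap. Several kinds of protein shared the top of the list. Gpr180, Gpr108, Gpr89 and Gpr107 belong to the proteins not settled as G protein coupled receptors. Gpr161 is a cilium receptor that restrains Hedgehog signaling, and Gpr22, Gpr153 and Gpr162 are orphans best known from neural tissue.

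**Figure D1:**
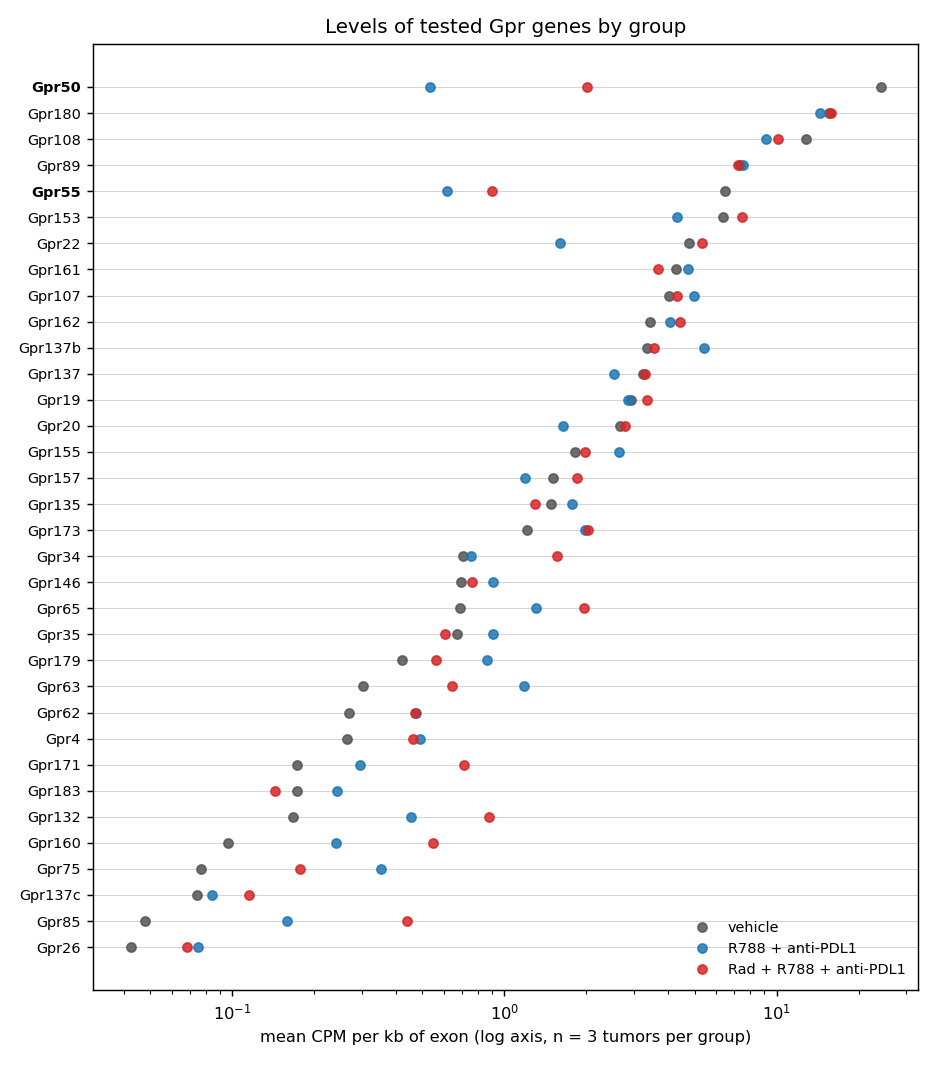
Mean level of tested numbered Gpr genes (all but 1) in each group, in CPM per kb of exon on a log axis, with 1 point per group (n = 3 tumors) and genes ordered by the vehicle level. Gpr50 led the vehicle order at 24.2 CPM per kb and stood at 0.535 in R788 + anti-PDL1 and 2.01 in Rad + R788 + anti-PDL1, while Gpr180 stood at 15.6, 14.4 and 15.9.

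In treated tumors Gpr50 and Gpr55 left the top of this order, which Gpr180 and Gpr108 then led. By group mean, Gpr50 went from rank 1 of 66 in vehicle to rank 25 in R788 + anti-PDL1 and rank 14 in Rad + R788 + anti-PDL1. Gpr55 went from rank 5 to ranks 24 and 20. Gpr180 took rank 1 in both treated groups, with 14.4 ± 1.21 and 15.9 ± 3.16 CPM per kb, and Gpr108 took rank 2, with 9.11 ± 1.08 and 10.1 ± 0.861 CPM per kb. Gpr89 was at 7.55 ± 0.951 and 7.23 ± 1.91 CPM per kb. Gpr22, at rank 7 in vehicle, stood at rank 15 in R788 + anti-PDL1 (1.61 ± 0.886 CPM per kb) and at rank 5 in Rad + R788 + anti-PDL1 (5.31 ± 2.73 CPM per kb).

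The sum over the class showed the weight of these genes. Gpr50 and Gpr55 together made up 7.23%, 30.7% and 25.8% of the summed CPM of all members in the 3 vehicle tumors. They made up 1.50%, 0.764% and 0.923% in R788 + anti-PDL1 tumors and 2.70%, 2.44% and 2.39% in Rad + R788 + anti-PDL1 tumors. Without them, the members summed to 369, 329 and 345 CPM in vehicle, to 373, 338 and 379 CPM in R788 + anti-PDL1 and to 316, 388 and 415 CPM in Rad + R788 + anti-PDL1. The groups overlapped in this remainder.

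Gpr50 encodes the melatonin-related receptor, which resembles the melatonin receptors but does not bind melatonin and can pair with one of them. The gene (ENSMUSG00000056380.13) lies at chrX:71663667-71669257 on the plus strand of GRCm38, and its exons overlap no other gene. It had 222, 2628 and 1685 counts in vehicle replicates 1, 2 and 3, which is 12.3, 118 and 92.3 CPM. R788 + anti-PDL1 tumors had 46, 35 and 38 counts, or 2.03, 1.34 and 1.56 CPM. Rad + R788 + anti-PDL1 tumors had 73, 122 and 152 counts, or 5.38, 6.19 and 6.94 CPM. The 3 groups did not overlap, with vehicle highest and R788 + anti-PDL1 lowest. Vehicle replicate 1 was far below the other vehicle tumors but above every treated tumor, and it ranked Gpr50 at 9 among the members where the other 2 vehicle tumors ranked it at 1.

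Against vehicle, the log2 fold change of Gpr50 was -5.50 ± 0.75 (SE) in R788 + anti-PDL1, with an adjusted p of 0.0375 by the edgeR quasi-likelihood test. In Rad + R788 + anti-PDL1 it was -3.58 ± 0.68 with an adjusted p of 0.104. The first value stood at percentile 0.0251 of all tested genes, counted from the lowest, and the second at percentile 0.151. Both comparisons share the vehicle tumors, which carried most of the spread of this gene. Between the treated groups the log2 fold change was 1.91 ± 0.67 higher with radiation, and its adjusted p of 0.226 did not pass. Without Rad + R788 + anti-PDL1 replicate 1, the 3 values were -5.47, -3.46 and 2.01, with adjusted p of 0.00881, 0.119 and 0.258. Without vehicle replicate 1, the values relative to vehicle were -5.98 and -4.08, with adjusted p of 0.000278 and 0.00313. Leaving out any of the other 7 libraries in turn kept the first value between -5.68 and -5.00 but ended the call, with adjusted p of 0.0587 to 0.216.

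Gpr55 encodes a receptor that responds to lysophosphatidylinositol and to some cannabinoids. The gene (ENSMUSG00000049608.8) lies at chr1:85938318-85961007 on the minus strand, and its exons overlap 4933407L21Rik on the other strand, a gene with 10 to 31 counts per library. Because the strandedness of the libraries is not given, the reads of the 2 genes cannot be told apart. Gpr55 had 299, 617 and 510 counts in vehicle tumors, or 16.5, 27.7 and 28.0 CPM. R788 + anti-PDL1 tumors had 83, 33 and 48 counts, or 3.66, 1.26 and 1.97 CPM. Rad + R788 + anti-PDL1 tumors had 46, 69 and 70 counts, or 3.39, 3.50 and 3.20 CPM. All vehicle tumors were above all treated tumors, and the treated groups overlapped.

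Gpr55 had a log2 fold change of -3.39 ± 0.42 in R788 + anti-PDL1 (adjusted p 0.0344, percentile 0.182 of all tested genes) and -2.84 ± 0.41 in Rad + R788 + anti-PDL1 (adjusted p 0.0606, percentile 0.282). Between the treated groups it was 0.55 ± 0.40, with an adjusted p of 0.450. Without Rad + R788 + anti-PDL1 replicate 1 the values were -3.37, -2.81 and 0.56. The first value lost its call, with adjusted p of 0.0514 to 0.216, in 6 of the 9 fits that left out 1 library. The spread of Gpr55 among vehicle tumors (24.1 ± 6.54 CPM) was smaller in proportion than that of Gpr50 (74.2 ± 55.2 CPM), and vehicle replicate 1 was the lowest vehicle tumor for both genes.

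Some markers of the tumor cells and of other cells also differed between the groups, not all in the direction of Gpr50 and Gpr55. Isl1, a transcription factor of sympathetic neuroblasts, had 0 counts in all 3 vehicle tumors, 80, 48 and 63 counts in R788 + anti-PDL1 and 14, 27 and 21 counts in Rad + R788 + anti-PDL1. Relative to vehicle it was called higher in R788 + anti-PDL1 (adjusted p 0.0344) and was not called with radiation (adjusted p 0.0605), although no treated tumor overlapped vehicle. With 0 counts in vehicle, Isl1 passed the filter on low counts only through the treated tumors, where it was high. Gata3, a further transcription factor of this lineage, was at 11.4, 0.180 and 3.01 CPM in vehicle, 0.661, 0.306 and 0.328 CPM in R788 + anti-PDL1 and 5.90, 6.04 and 6.80 CPM with radiation. Relative to vehicle, Gata3 stood at -3.48 ± 1.08 on the log2 scale without radiation (adjusted p 0.227) and at 0.37 ± 0.95 with it (adjusted p 0.859). Vehicle replicate 1, the lowest vehicle tumor for Gpr50, was the highest for Gata3. The neuroblast list summed to 490 to 613 CPM in vehicle, 622 to 696 CPM in R788 + anti-PDL1 and 622 to 967 CPM with radiation. Every treated tumor was thus above every vehicle tumor, but Hand2 made up most of this sum. Relative to vehicle, Hand2 stood at 0.29 ± 0.25 without radiation and 0.77 ± 0.26 with it (adjusted p 0.741 and 0.292). Mycn stood at 0.25 ± 0.28 and -0.39 ± 0.28 (adjusted p 0.801 and 0.510). Between the treated groups Mycn was lower with radiation at an unadjusted p under 0.05, and was not called.

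Among the vehicle tumors the neutrophil list had the order of Gpr50, lowest in replicate 1 and highest in replicate 2. The order was not particular to it. In vehicle replicates 1, 2 and 3 the adipocyte list summed to 17.9, 42.7 and 37.7 CPM and the endothelium list to 33.1, 43.5 and 40.0 CPM. The skeletal muscle list summed to 4.53, 5.34 and 4.82 CPM. The 5 neutrophil markers summed to 4.53, 11.8 and 10.5 CPM in vehicle replicates 1, 2 and 3. They summed to 3.13, 4.70 and 4.22 CPM in R788 + anti-PDL1 and to 5.46, 3.70 and 17.7 CPM in Rad + R788 + anti-PDL1. S100a8 and S100a9, which encode the calprotectin subunits of neutrophils, were lower in all R788 + anti-PDL1 tumors than in all vehicle tumors, with log2 fold changes of -3.00 ± 0.73 and -3.45 ± 0.74 (adjusted p 0.110 and 0.0832). With radiation they were at -1.08 ± 0.67 and -1.53 ± 0.67 relative to vehicle (adjusted p 0.460 and 0.373), and they overlapped vehicle. The other neutrophil markers did not all go this way. Csf3r stood at -0.75 ± 1.03 without radiation (adjusted p 0.842) and at 0.81 ± 1.02 with it (adjusted p 0.704). Cxcr2 stood at 0.32 ± 0.53 and 0.50 ± 0.53 (adjusted p 0.874 and 0.652). Retnlg was not tested. The macrophage markers ran opposite to Gpr50 among vehicle tumors, at 340, 180 and 212 CPM in replicates 1, 2 and 3. The neuroblast, T cell, fibroblast and Schwann cell lists were also highest in vehicle replicate 1 among the vehicle tumors. Isl1 was the only called gene of the neuroblast, neutrophil and macrophage lists in any comparison, where at most 0.678% of all genes were called. The part of these cells in the levels of Gpr50 and Gpr55 was not tested.

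**Figure D2:**
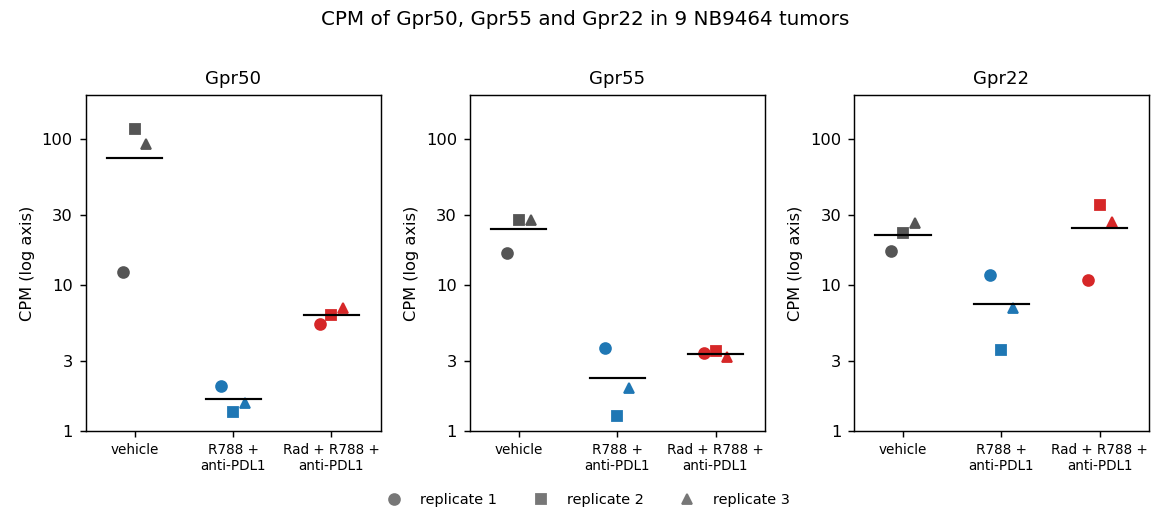
CPM of Gpr50, Gpr55 and Gpr22 in each tumor on a log axis, with 1 symbol per replicate number and a line at each group mean. Every vehicle tumor lay above every treated tumor for Gpr50 and Gpr55, and for Gpr22 the R788 + anti-PDL1 tumors (3.55 to 11.7 CPM) lay below the vehicle tumors (16.9 to 26.5 CPM).

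Gpr50 and Gpr55 were the only numbered Gpr genes called in R788 + anti-PDL1 relative to vehicle, 2 of 35 tested, both lower, where 0.678% of all 15931 tested genes were called in either direction. Because both genes were picked from this contrast, nothing is read from that count. It depended on the libraries in the fit. It was 0 when vehicle replicate 2 or 3 was left out, and likewise for replicate 1 or 3 of R788 + anti-PDL1 and replicate 2 or 3 of Rad + R788 + anti-PDL1. It was 1 (Gpr55) without R788 + anti-PDL1 replicate 2, while each of these fits kept both genes lower and no adjusted p rose above 0.216. In Rad + R788 + anti-PDL1 relative to vehicle, 0 of 35 were called (0.0439% of all genes), and between the treated groups also 0 of 35 (0.00628% of all genes). DESeq2 called 5 and 2 of 35 in these comparisons, where it called 3.84% and 5.16% of all genes.

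Over the 35 tested members, log2 fold changes had a median of 0.36 in R788 + anti-PDL1 relative to vehicle, beside -0.02 over all genes, with 25 members higher and 10 lower. The median was 0.20 beside 0.05 in Rad + R788 + anti-PDL1 relative to vehicle (26 higher, 9 lower) and 0.13 beside 0.04 between the treated groups (19 higher, 16 lower). These members had passed a filter on low counts, and the medians are given as a description. Without the filter, the medians over all 66 were 0.49, 0.16 and -0.05, beside 0.03, 0.04 and 0.00 over all genes. Over the 24 members with at least 10 counts in every library, the medians were 0.18, 0.13 and 0.10, beside -0.01, 0.05 and 0.05 over all genes kept in that way, with 15 higher and 9 lower in the first comparison.

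At an unadjusted p under 0.05, R788 + anti-PDL1 relative to vehicle gave 3 members higher (5.96% of all genes were) and 5 lower (5.69% of all genes). In Rad + R788 + anti-PDL1 relative to vehicle there were 6 higher (7.71% of all genes) and 2 lower (5.51% of all genes), the latter being Gpr50 and Gpr55. Between the treated groups there were 5 higher with radiation (11.7% of all genes) and 0 lower (6.65% of all genes). Apart from Gpr50 and Gpr55 these members did not pass the adjusted threshold in any comparison. Groups that did not overlap were frequent among all genes. Against vehicle, R788 + anti-PDL1 tumors were all higher for 9 members (13.6% of all genes) and all lower for 7 (16.5% of all genes). Rad + R788 + anti-PDL1 tumors were all higher than vehicle for 6 (9.27% of all genes) and all lower for 4 (11.2% of all genes). They were all higher than R788 + anti-PDL1 tumors for 4 (14.2% of all genes) and all lower for 4 (13.2% of all genes).

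**Figure D3:**
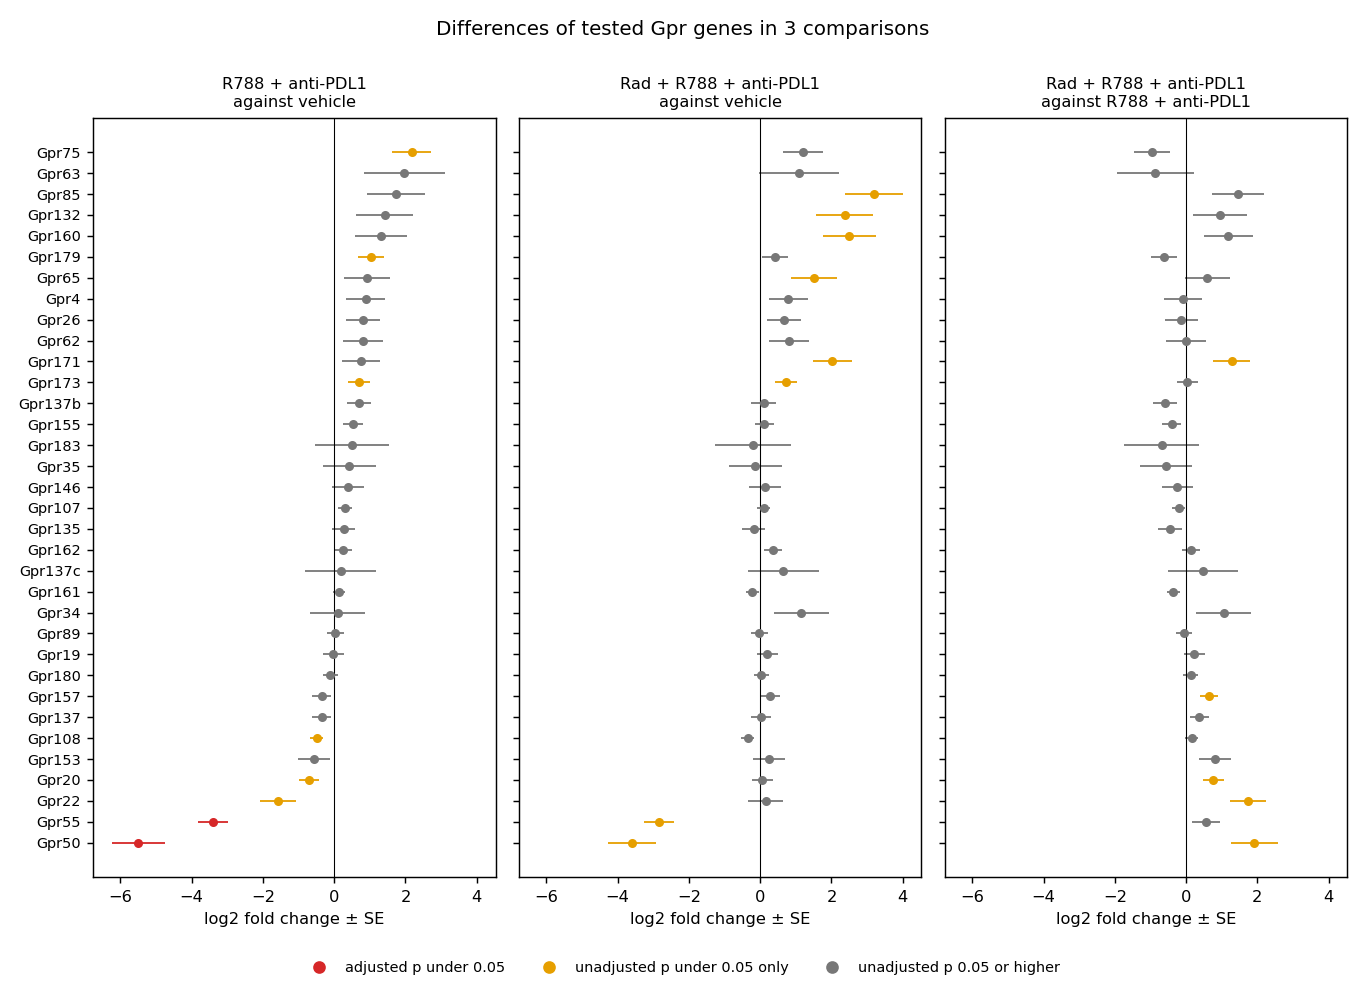
Log2 fold change of tested numbered Gpr genes (all but 1) in the 3 comparisons, with bars of 1 SE, ordered by the first comparison and colored by adjusted and unadjusted p of the edgeR test. Gpr50 at -5.50 and Gpr55 at -3.39 stand below the other members in the first panel, followed by Gpr22 at -1.57, and the same 2 genes are lowest in the second panel at -3.58 and -2.84.

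Gpr22, an orphan receptor of brain and heart, was the next lowest member in R788 + anti-PDL1. It was at 16.9, 22.6 and 26.5 CPM in vehicle, at 11.7, 3.55 and 6.97 CPM in R788 + anti-PDL1 and at 10.8, 35.5 and 27.2 CPM in Rad + R788 + anti-PDL1. R788 + anti-PDL1 tumors were below all vehicle tumors, whereas the irradiated tumors spread over both groups, with replicate 1 low. Relative to vehicle, the log2 fold change was -1.57 ± 0.50 without radiation (adjusted p 0.241) and 0.15 ± 0.49 with radiation (adjusted p 0.889). It was 1.73 ± 0.51 between the treated groups (adjusted p 0.222). Without Rad + R788 + anti-PDL1 replicate 1 the last value was 2.09 with an adjusted p of 0.0864.

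Gpr20 and Gpr108 were also below vehicle by small amounts. Gpr20, a constitutively active receptor of interstitial cells in the gut, was at 5.74, 6.29 and 5.15 CPM in vehicle and at 3.04, 4.24 and 3.24 CPM in R788 + anti-PDL1 (log2 fold change -0.71 ± 0.29, adjusted p 0.381). Rad + R788 + anti-PDL1 tumors were at 5.75, 6.04 and 6.12 CPM, within the vehicle range, and 0.77 ± 0.29 above R788 + anti-PDL1 on the log2 scale (adjusted p 0.240). Gpr108, a Golgi protein, was at 34.8, 34.8 and 40.7 CPM in vehicle and at 28.6, 22.6 and 27.0 CPM in R788 + anti-PDL1 (-0.50 ± 0.18, adjusted p 0.322). With radiation Gpr108 was at 31.8, 27.7 and 27.4 CPM, also below all vehicle tumors (-0.35 ± 0.18, adjusted p 0.417). Gpr157, not settled as a receptor, differed between the treated groups by 0.64 ± 0.26 (adjusted p 0.251), with 5.42, 6.15 and 5.86 CPM in R788 + anti-PDL1 and 10.3, 8.93 and 7.90 CPM with radiation. None of these differences passed the adjusted threshold.

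On the other side, Gpr75 and Gpr179 were higher in every R788 + anti-PDL1 tumor than in every vehicle tumor. Gpr75, a receptor expressed in brain, had 5, 4 and 4 counts in vehicle, 27, 26 and 22 in R788 + anti-PDL1 and 5, 9 and 16 in Rad + R788 + anti-PDL1. R788 + anti-PDL1 tumors exceeded vehicle by 2.17 ± 0.55 on the log2 scale (adjusted p 0.121). Gpr75 passed the filter on low counts only through the R788 + anti-PDL1 tumors, where it was high, so this value is descriptive. Its exons overlap Asb3 on the same strand, which had 188 to 465 counts per library, so the split of reads between the 2 genes is uncertain. Gpr179, needed for signaling in bipolar cells of the retina, was at 6.13, 3.10 and 2.80 CPM in vehicle and at 8.25, 8.41 and 8.03 CPM in R788 + anti-PDL1 (1.04 ± 0.36, adjusted p 0.275). With radiation it was at 5.83, 4.52 and 5.71 CPM, which overlapped vehicle.

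Gpr85 and Gpr173 belong to a small family of highly conserved receptors expressed in brain, together with Gpr27, which was too low to test. Gpr85 had 5, 2 and 4 counts in vehicle, 5, 28 and 16 in R788 + anti-PDL1 and 11, 27 and 70 in Rad + R788 + anti-PDL1. With under 10 counts in every vehicle tumor, Gpr85 passed the filter on low counts only through treated tumors. It had the highest log2 fold change of the class relative to vehicle with radiation, 3.19 ± 0.82, with an adjusted p of 0.217, and 2.47 without Rad + R788 + anti-PDL1 replicate 3. Gpr173 was at 7.07, 5.70 and 5.81 CPM in vehicle, 13.6, 6.57 and 10.0 CPM in R788 + anti-PDL1 and 11.3, 10.2 and 9.45 CPM with radiation. Its log2 fold changes relative to vehicle were 0.70 ± 0.31 and 0.74 ± 0.31 (adjusted p 0.418 and 0.357). Gpr26, a constitutively active receptor that raises cyclic AMP, was below 1.1 CPM in every library and differed from vehicle by 0.82 ± 0.48 and 0.68 ± 0.48 (adjusted p 0.583 and 0.509).

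Proton-sensing receptors respond to acidity outside the cell. Of those described here, Gpr4, Gpr65 and Gpr132, 0 were called in any of the 3 comparisons, beside at most 0.678% of all genes. Gpr65, found on lymphocytes and macrophages, was at 1.38, 1.26 and 1.64 CPM in vehicle, at 2.87, 2.56 and 2.66 CPM in R788 + anti-PDL1 and at 1.40, 1.98 and 8.81 CPM in Rad + R788 + anti-PDL1. The R788 + anti-PDL1 tumors were close together and above vehicle, while 1 irradiated tumor, replicate 3, exceeded all others. The log2 fold changes relative to vehicle were 0.92 ± 0.64 (adjusted p 0.668) and, with radiation, 1.52 ± 0.65 (adjusted p 0.365), the latter falling to 0.25 without that tumor.

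Gpr132, also an immune cell receptor, showed the same tumor on top, with 0.276, 0.808 and 0.274 CPM in vehicle, 0.926, 1.83 and 0.943 CPM in R788 + anti-PDL1 and 1.99, 0.558 and 4.61 CPM with radiation. Its log2 fold change with radiation was 2.37 ± 0.81 (adjusted p 0.304), and 1.44 without replicate 3. Gpr132 passed the filter on low counts only with the treated tumors, so this value is descriptive. Gpr4, best known from endothelium, was between 0.548 and 2.06 CPM in all libraries (0.88 ± 0.55 and 0.79 ± 0.55 relative to vehicle, adjusted p 0.615 and 0.503).

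Of the immune-cell receptors, 14 were detected, 4 were tested and 0 were called in any comparison, where at most 0.678% of all genes were called. Gpr171, expressed in T cells, was at 0.386, 0.494 and 0.274 CPM in vehicle, 0.617, 0.688 and 0.656 CPM in R788 + anti-PDL1 and 1.18, 1.12 and 2.47 CPM in Rad + R788 + anti-PDL1. The 3 groups did not overlap and stood in that order. Gpr171 passed the filter on low counts only with the treated tumors, where it was high, so these values are descriptive. The log2 fold changes were 0.75 ± 0.54 and, with radiation, 2.03 ± 0.54 relative to vehicle (adjusted p 0.676 and 0.221) and 1.28 ± 0.52 between the treated groups (adjusted p 0.251). Without Rad + R788 + anti-PDL1 replicate 3 the last 2 values were 1.55 and 0.80.

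Gpr34, a lysophosphatidylserine receptor of microglia and macrophages, was at 3.09, 0.449 and 0.877 CPM in vehicle, 1.54, 1.91 and 1.27 CPM in R788 + anti-PDL1 and 1.55, 1.83 and 6.39 CPM with radiation. Gpr35, found on gut and myeloid cells, was at 2.90 to 3.81 CPM in vehicle, 3.36 to 5.56 CPM in R788 + anti-PDL1 and 0.369, 2.08 and 6.35 CPM with radiation. Gpr183, the oxysterol receptor that guides B cells and other immune cells, was at 0.449 to 0.548 CPM in vehicle, 0.344 to 1.15 CPM in R788 + anti-PDL1 and 0, 0.101 and 1.14 CPM with radiation. Groups overlapped for these 3 genes in every comparison, and their adjusted p were 0.454 or higher. Gpr160, an orphan receptor outside this list, was also highest in replicate 3 with radiation. It had 9, 4 and 10 counts in vehicle, 21, 32 and 22 in R788 + anti-PDL1 and 19, 16 and 103 in the irradiated tumors. Relative to vehicle it stood at 2.50 ± 0.75 with radiation (adjusted p 0.265), and at 1.43 without replicate 3. Gpr160 too passed the filter on low counts only with the treated tumors, so this value is descriptive.

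Rad + R788 + anti-PDL1 replicate 3 was the highest of the 9 tumors for Gpr65, Gpr132, Gpr171, Gpr34, Gpr35, Gpr160 and Gpr85. In it the 8 macrophage markers summed to 1116 CPM, against 207 and 320 CPM in replicates 2 and 1 of that group, 180 to 340 CPM in vehicle and 367 to 405 CPM in R788 + anti-PDL1. The 7 T cell markers summed to 34.3 CPM in that tumor, compared with 1.99 and 6.75 CPM in replicates 1 and 2, 1.75 to 4.20 CPM in vehicle and 5.50 to 23.8 CPM in R788 + anti-PDL1. The part of these cells in the receptor levels was not tested.

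**Figure D4:**
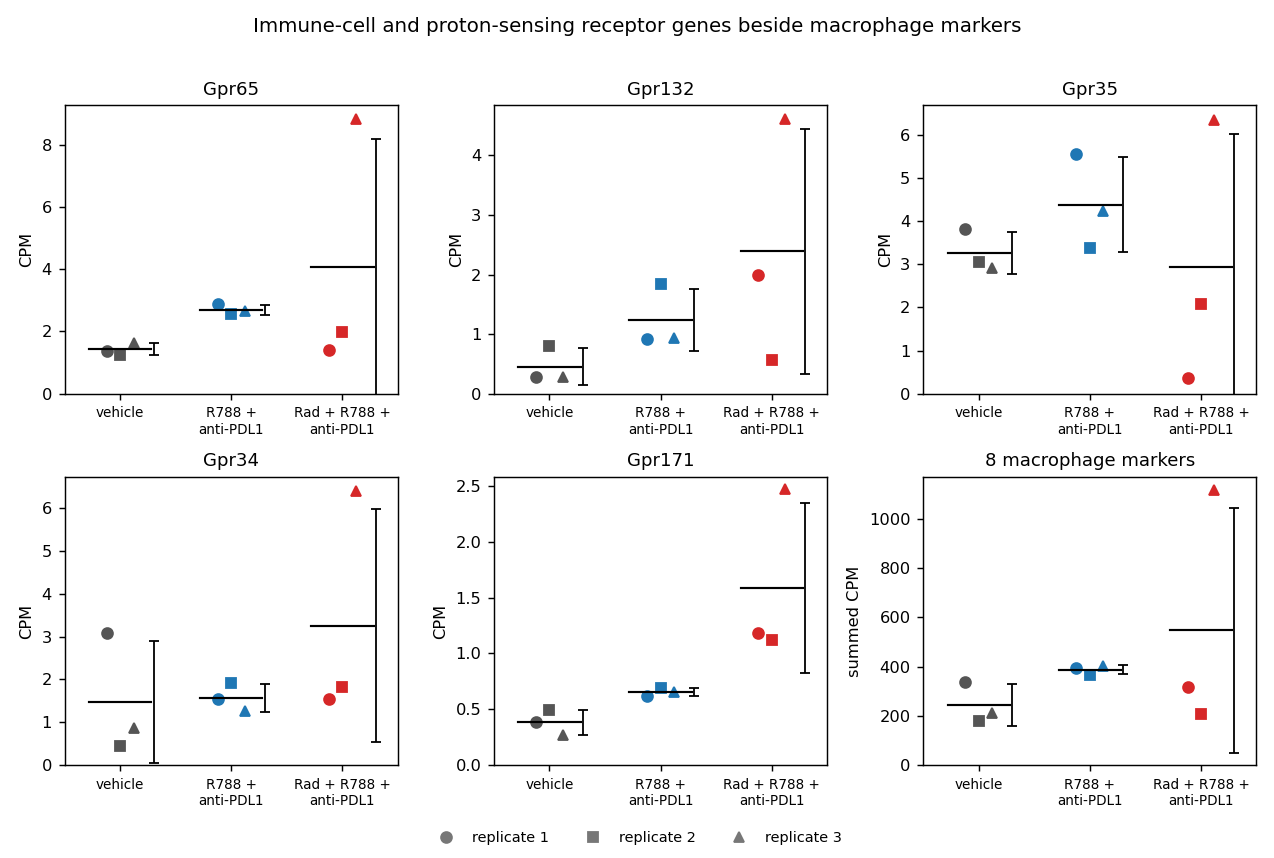
CPM of 5 receptor genes of immune cells or acid sensing and the summed CPM of 8 macrophage markers in each tumor, with 1 symbol per replicate number, a line at the group mean and a bar of 1 SD (for Gpr65 and Gpr35 with radiation the bar runs below the axis). Rad + R788 + anti-PDL1 replicate 3 is highest for Gpr65 (8.81 CPM), Gpr132 (4.61 CPM), Gpr34 (6.39 CPM), Gpr171 (2.47 CPM), Gpr35 (6.35 CPM) and the markers (1116 CPM).

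The melatonin receptors, which Gpr50 resembles, and the cannabinoid receptors, which share some ligands with Gpr55, were also examined. Mtnr1a, Mtnr1b and the cannabinoid receptor gene Cnr1 were at 0 in all 9 libraries. Cnr2, the cannabinoid receptor of immune cells, was at 0.135 to 0.552 CPM in vehicle, 0.838 to 1.11 CPM in R788 + anti-PDL1 and 0.0738, 0.152 and 2.69 CPM with radiation. Its log2 fold changes relative to vehicle were 1.25 ± 1.11 and 1.34 ± 1.12 (adjusted p 0.743 and 0.569). Of 9 genes that make ligands of numbered receptors or of melatonin receptors, 5 were tested. In the comparisons, 0 of these were called, beside at most 0.678% of all genes.

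Among the genes that carry receptor signals, 12 G protein alpha subunits, 13 beta or gamma subunits, 8 arrestins or GRK kinases, 14 RGS genes and 6 adenylyl cyclases were tested. At most 0.678% of all genes were called in a comparison, and of these signal genes 1 was called in any comparison. This was Gnas, which encodes the alpha subunit that stimulates adenylyl cyclase and shares its locus with other imprinted transcripts. It had 36486, 45424 and 37181 counts in vehicle, 16257, 26736 and 18258 in R788 + anti-PDL1 and 17872, 30083 and 29886 in Rad + R788 + anti-PDL1. In CPM the groups did not overlap, with vehicle highest and R788 + anti-PDL1 lowest. Relative to vehicle, the log2 fold change was -1.29 ± 0.22 without radiation (adjusted p 0.0408) and -0.53 ± 0.22 with it (adjusted p 0.355). It was 0.76 ± 0.22 between the treated groups (adjusted p 0.222). No gene, Gnas included, was called in the first comparison without vehicle replicate 2 or 3 or without replicate 1 or 3 of R788 + anti-PDL1. The same held with a replicate block. Without replicate 2 or 3 of Rad + R788 + anti-PDL1, no gene was called lower, so Gnas lost its call there too.

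Exons of 24 detected members overlap another gene. Besides Gpr55 and Gpr75, this concerned Gpr137 (Bad), Gpr137c (Txndc16), Gpr62 (Pcbp4) and Gpr173 (3010001F23Rik, 6 to 36 counts), all on the other strand. Gpr137b has a pseudogene copy, Gpr137b-ps, with 123 to 521 counts, so its counts are uncertain. Some members lie within 100 kb of each other, among them a tested receptor of immune cells beside an untested one in the cases of Gpr183 with Gpr18 at 36770 bp and Gpr34 with Gpr82 at 20505 bp. None of the pairs included Gpr50 or Gpr55.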

How the data were processed

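RNA-seq of 9 whole tumors in 3 groups of 3 was used, with groups from the treatment label of each sample. Per the study's methods, the authors used STAR for alignment to mm10 and Salmon within bcbio for quantification, and compared groups with DESeq2. The submitters' processing notes name STAR 2.6.1d and Salmon 1.4.0. The deposited values are estimated counts per gene symbol from Salmon, given as whole numbers and not normalized. Annotation release and strandedness are not given in the sources used here, and the labels' extraction text names cultured macrophages although the tissue label is whole tumor. The labels and the methods also differ in the sequencer. Nothing says how the 3 tumors of a group were processed beyond their numbers, so p-values measure the spread between these samples.

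Genes passing filterByExpr (minimum count 10) were fitted over all 9 libraries with edgeR 4.0.16 (R 4.3.3), TMM scaling, 1 coefficient per group and the robust quasi-likelihood test, two-sided. This left 15931 genes, and a gene was called at a Benjamini-Hochberg adjusted p under 0.05 over all of them. The SE is the log2 fold change divided by the square root of F. An exact permutation test of 3 against 3 tumors cannot go below 0.1 and was not used. Alternatives were DESeq2 1.42.0, limma-voom (limma 3.58.1), RLE scaling, no filter, at least 10 counts in every library, only the 6 libraries compared, a replicate block, and leaving out each library. The procedure was tested on simulated data.

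All 73 member symbols matched 1 identifier of GENCODE M21 (GRCm38), the same assembly as mm10, which gave exon lengths and coordinates. Promoter windows came from RefSeq (GRCm38.p6). The members and all gene lists were chosen with earlier results of these data known. Named members were Gpr50 and Gpr55, every member called or with an unadjusted p under 0.05 in any comparison, the 10 highest per kb in vehicle, and tested proton-sensing, immune-cell or constitutively active receptor. Gene groups were counted and not tested as sets. A few items that this rule or the lists include are not reported here. Values such as 3 counts for a count of 0 cover counting error only, since the reads carried no molecular identifiers.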

Additional observations from a re-analysis of the deposited data

How the results depend on the processing

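The number of called members in R788 + anti-PDL1 relative to vehicle, 2 in the reported fit, was 4 with DESeq2 (Gpr22, Gpr50, Gpr55 and Gpr75), 1 with limma-voom (Gpr55), 0 with a replicate block and 0 to 2 when each library was left out. In Rad + R788 + anti-PDL1 relative to vehicle, 0 in the reported fit, it was 5 with DESeq2 (Gpr160, Gpr171, Gpr50, Gpr55 and Gpr85), 1 without the filter on low counts (Gpr55) and 0 to 1 when each library was left out (Gpr55 without R788 + anti-PDL1 replicate 2, Gpr50 without vehicle replicate 1). Between the treated groups it was 2 with DESeq2 (Gpr22 and Gpr50) and 0 otherwise. DESeq2 also called more genes in all, 770, 611 and 822, against 108, 7 and 1, and the cause was not tested. These were 4.83%, 3.84% and 5.16% of all genes, beside which its counts of 4, 5 and 2 of 35 members are to be read. Over all genes the first comparison gave 0 to 856 calls when each library was left out, the highest without Rad + R788 + anti-PDL1 replicate 1, and 594 with only the 6 libraries compared. The reported counts at an unadjusted p under 0.05 were 8, 8 and 5 members.

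Same-numbered libraries of different groups correlated at -0.0463 to 0.233 in their deviations from the group means, and differently numbered ones at -0.225 to 0.123. The highest values, 0.233 and 0.191, belonged to replicates 1 and 2 of Rad + R788 + anti-PDL1 with the same-numbered vehicle tumors. For replicate 3 the value was 0.0538. Whether the numbers pair the tumors was not settled, and the reported fit did not pair them. With the replicate block, 0 genes were called in R788 + anti-PDL1 relative to vehicle, 3 in Rad + R788 + anti-PDL1 relative to vehicle and 0 between the treated groups. Gpr50 and Gpr55 then stood at -5.21 and -3.45 in R788 + anti-PDL1 relative to vehicle, both with an adjusted p of 0.0667.

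Over 16 alternatives Gpr50 was lower in R788 + anti-PDL1 in all 16 and called in 7 (log2 fold change -5.98 to -4.99). Gpr55 was lower in all 16 and called in 9 (-3.90 to -3.10). Alternatives were followed for Gpr50, Gpr55 and each named member in comparisons where its unadjusted p was under 0.05. None of these reversed direction in any alternative run. Named members without such a p, among them Gpr180 and Gpr89, were not followed in this way. Against vehicle with radiation, Gpr65 ranged from 0.25 to 1.96. Depth limits the 31 untested members.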
